A study of Mus musculus with 4 samples.

Results

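The small leucine-rich proteoglycans are a family of secreted matrix proteins, represented here by 9 genes, Bgn, Dcn, Aspn, Lum, Fmod, Prelp, Omd, Ogn and Podn. They were taken as a family by name and not by any measured value, although earlier results of these data were known. Their levels were compared between Mmp3-positive and Mmp3-negative cells. Of 35580 genes in the tables, 14185 had enough counts to be tested, among them 7 of the 9 members. At least 1 count was found for 8 members, Omd had too few to be tested, and Aspn was listed at 0 in every library. RNA was sequenced from cells of the stromal vascular fraction, the mixture of stromal, vascular and immune cells that remains when fat cells are removed from digested adipose tissue. The tissue was subcutaneous fat of C57BL/6 mice labelled WT, with no treatment or age named. Mmp3-positive and Mmp3-negative cells gave 2 libraries each, titled Set1 and Set2 in both groups and called replicates 1 and 2 here. The sources used here do not give how the cells were separated, apart from a reagent code, or whether a library came from 1 animal or a pool. Because separate animals are not stated, every p below measures only the spread between these 4 libraries, which may be technical.

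Each member has a core protein built from leucine-rich repeats, which forms a curved surface that binds collagen and other matrix partners. Decorin and biglycan carry chondroitin or dermatan sulfate chains and bind transforming growth factor beta, and lumican and fibromodulin can carry keratan sulfate. In connective tissues the family is known for setting the diameter and spacing of collagen fibrils and for holding growth factors in the matrix. In adipose tissue these genes are known as products of fibroblast-like stromal cells.

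Of the 9 members, 7 had an entry in the RefSeq promoter table (GRCm38.p6). Dcn and Lum had none. A stretch of 237 bases upstream of the RefSeq start, without the 13 bases next to it, is shown for some members. They are those with an entry whose levels did not overlap between the groups. These were Bgn and Prelp, higher in both Mmp3-positive libraries, and Fmod, lower in both. Dcn and Lum were also higher in both Mmp3-positive libraries and are missing only for want of an entry. The stretches are chrX:73483351-73483587 on the plus strand for Bgn, chr1:133921415-133921651 on the minus strand for Prelp, and chr1:134037004-134037240 on the plus strand for Fmod. Capitals mark a match to a searched motif on either strand.
Bgn: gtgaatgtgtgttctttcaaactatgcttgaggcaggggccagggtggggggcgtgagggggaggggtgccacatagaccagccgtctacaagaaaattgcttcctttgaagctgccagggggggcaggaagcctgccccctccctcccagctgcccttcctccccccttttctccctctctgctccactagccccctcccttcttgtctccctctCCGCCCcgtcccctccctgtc
Prelp: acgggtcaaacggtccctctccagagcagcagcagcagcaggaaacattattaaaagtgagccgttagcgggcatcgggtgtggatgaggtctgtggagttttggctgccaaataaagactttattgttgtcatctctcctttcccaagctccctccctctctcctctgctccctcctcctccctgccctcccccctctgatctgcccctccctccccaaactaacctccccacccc
Fmod: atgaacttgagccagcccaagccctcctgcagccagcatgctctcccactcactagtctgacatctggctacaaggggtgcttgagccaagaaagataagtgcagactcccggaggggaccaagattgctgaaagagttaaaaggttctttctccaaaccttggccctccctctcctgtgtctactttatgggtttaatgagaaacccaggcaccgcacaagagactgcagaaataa
The patterns searched on both strands were GGGCGG (the GC box), TATAAA (the TATA box) and TGANTCA (the AP-1 motif). Bgn held 1 match, to GGGCGG on the opposite strand, printed as its reverse complement in capitals, and it overlapped no other match. Prelp and Fmod held 0 matches. Among 32851 mouse promoters cut to the same length, GGGCGG was found in 30.9%, TATAAA in 12.0% and TGANTCA in 6.52%. The GC content was 62.4% for Bgn, 56.5% for Prelp and 50.6% for Fmod, against a median of 51.9% over all promoters. These matches describe the letters of the windows and are not measured binding sites.

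The libraries held 19026779 and 20286221 estimated counts in Mmp3-positive cells and 18629081 and 17693755 in Mmp3-negative cells. Mmp3, which defined the groups and so checks the labels, stood at 4161 and 3409 CPM, counts rescaled so that libraries of different depth can be compared, against 106 and 131. It was the only gene called higher among the 14185 tested (0.00705%), and 2 were called lower (0.0141%), at an edgeR quasi-likelihood adjusted p under 0.05. The 2 Mmp3-positive libraries differed by a median of 0.501 on the log2 scale per gene and the 2 Mmp3-negative libraries by 0.795. Some genes used by every cell came out near 0 in 1 or both libraries of the Mmp3-negative group. Hprt had 208 and 68 counts in Mmp3-positive against 3 and 0 in Mmp3-negative libraries, and Pgk1 had 267 and 466 against 626 and 3. A member at 0 is therefore given as listed at 0, with each library's value and no mean.

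Levels of the abundant members were higher in Mmp3-positive libraries for Bgn, Dcn and Prelp, and close to one another for Podn. Fmod, a scarce member, was far lower in Mmp3-positive libraries. No member was called by edgeR (0 of 7 tested, against 0.0211% of all genes in either direction). At an unadjusted p under 0.05, Bgn and Prelp were higher, a side on which 5.62% of all genes lay, and Fmod was lower, against 3.25%, or 8.87% in either direction. DESeq2, a second count test, called the same 3 genes, with 5.46% of all genes called higher and 4.18% lower, or 9.64% in either direction. The CPM values of the groups did not overlap for 4 members that were higher, Bgn, Dcn, Lum and Prelp, where 22.5% of all genes did so. They did not overlap for 1 lower member, Fmod, against 17.3% of all genes, and 39.8% of all genes were apart in either direction. The median log2 fold change of the 7 tested members was 0.40, and that of all tested genes was 0.02. In bulk libraries such as these, fewer cells of a type and less RNA per cell cannot be told apart.

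**Figure D1:**
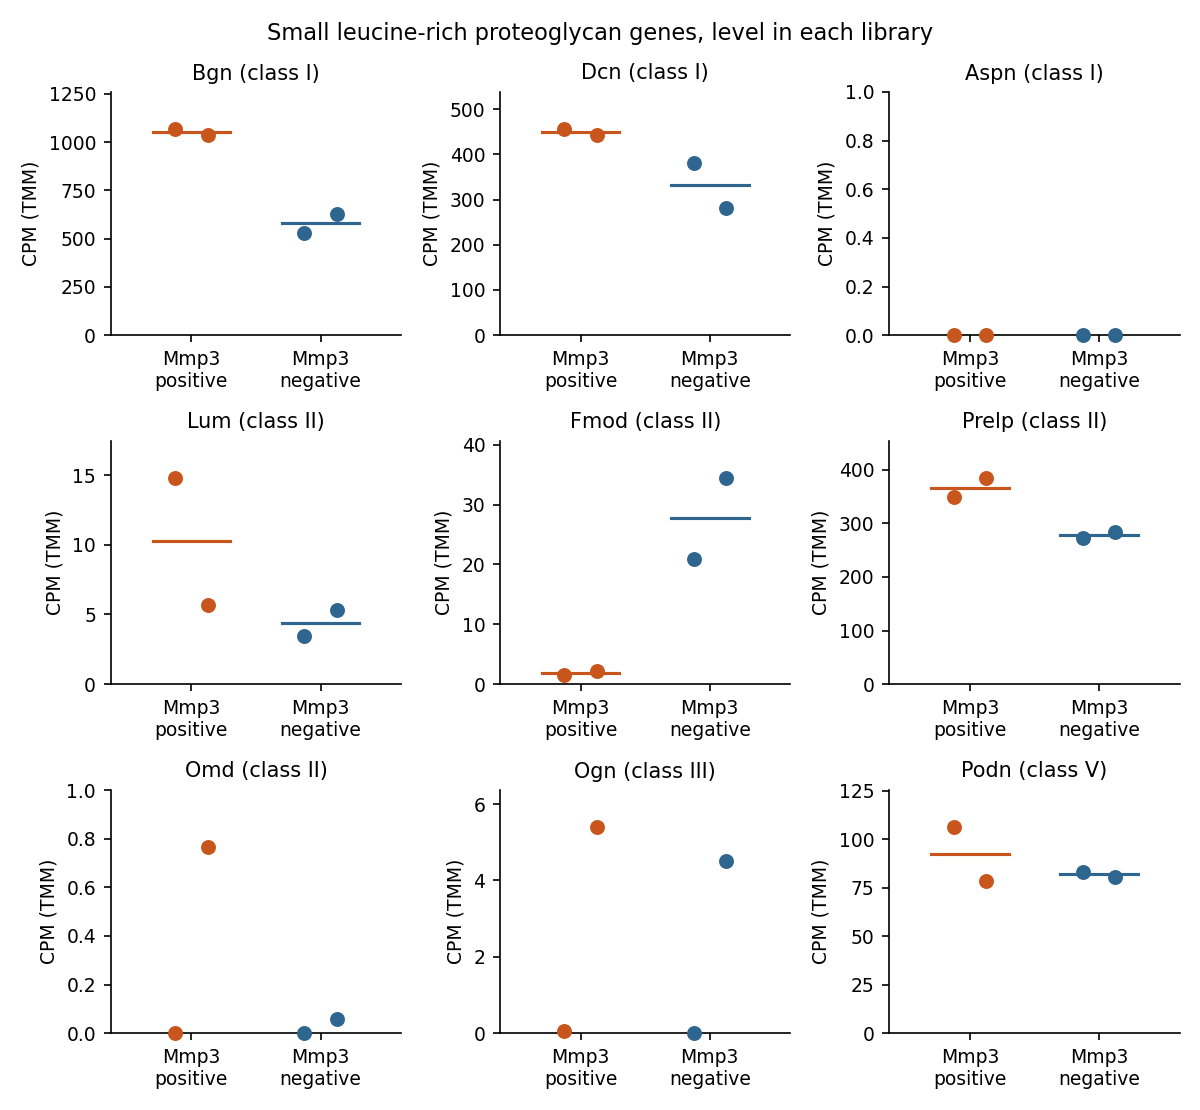
TMM-normalised CPM of each small leucine-rich proteoglycan gene in the 2 Mmp3-positive libraries (orange) and the 2 Mmp3-negative libraries (blue), on separate linear axes that start at 0. Points are libraries, replicate 1 left of replicate 2, and lines are group means, left out for Aspn, Omd and Ogn. Bgn stands at 1067 and 1038 against 531 and 627 CPM, and Fmod at 1.53 and 2.19 against 20.9 and 34.4 CPM.

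Among the class I members, biglycan had the highest level and a higher value in each Mmp3-positive library. Bgn encodes biglycan, which binds collagen and, in soluble form, Toll-like receptors. The gene (ENSMUSG00000031375) spans chrX:73483602-73495933 on the plus strand of GRCm38. Bgn stood at 1067 and 1038 CPM in Mmp3-positive libraries, against 531 and 627 CPM in Mmp3-negative libraries. Both Mmp3-positive values lay well above both Mmp3-negative values, and the replicates of each group were close. The means were 1053 ± 20.4 CPM in Mmp3-positive and 579 ± 67.7 CPM in Mmp3-negative libraries (SD, n = 2 each), a fold of 1.82. The log2 fold change was 0.86 with a standard error of 0.15 (edgeR unadjusted p = 0.00161, adjusted p = 0.480). In DESeq2 the log2 fold change was 0.82, with an adjusted p of 9.25e-09. Over 14 other settings the log2 fold change of Bgn lay between 0.75 and 1.30.

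Dcn encodes decorin, which binds along collagen fibrils and limits their lateral fusion. It (ENSMUSG00000019929) lies at chr10:97479609-97518143 on the plus strand. Dcn stood at 456 and 444 CPM in Mmp3-positive libraries, against 382 and 281 CPM in Mmp3-negative libraries. The Mmp3-positive values were alike and lay above both Mmp3-negative values, which differed from each other by more than the gap between the groups. The means were 449.8 ± 8.72 CPM in Mmp3-positive and 331 ± 71.2 CPM in Mmp3-negative libraries (SD, n = 2 each). Its log2 fold change was 0.44 with a standard error of 0.20, and the test was not passed (edgeR adjusted p = 0.617). It was 0.68 without Mmp3-negative replicate 1 and 0.24 without its replicate 2. Aspn, which encodes asporin, a relative of decorin known from cartilage and periodontal ligament, lies at chr13:49544443-49567565 (ENSMUSG00000021388, plus strand). It was listed at 0 in all 4 libraries, and a count of 0 allows up to 3 counts, which is between 0.153 and 0.173 CPM per library and covers counting error only.

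The class II members differed in direction, and fibromodulin had the widest gap of the tested members. Fmod encodes fibromodulin, which binds collagen during fibril formation and is abundant in tendon and cartilage. It (ENSMUSG00000041559) lies at chr1:134037254-134048277 on the plus strand. Fmod had 29 and 43 counts in Mmp3-positive libraries, against 388 and 597 counts in Mmp3-negative libraries, or 1.53 and 2.19 CPM against 20.9 and 34.4 CPM. Every Mmp3-negative value was far above every Mmp3-positive value. The means were 1.86 ± 0.469 CPM in Mmp3-positive and 27.7 ± 9.54 CPM in Mmp3-negative libraries (SD, n = 2 each), 14.8-fold lower in the Mmp3-positive libraries by the fit. Its log2 fold change was -3.89 with a standard error of 0.94 (edgeR unadjusted p = 0.00677, adjusted p = 0.480). In DESeq2 it was -3.94, with an adjusted p of 8.70e-08. Over 14 other settings the log2 fold change of Fmod lay between -4.21 and -2.77.

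Prelp encodes prolargin, a heparin-binding member thought to tie basement membranes to the collagen below them. It (ENSMUSG00000041577) lies at chr1:133910304-133921414 on the minus strand. Prelp stood at 349 and 384 CPM in Mmp3-positive libraries, against 272 and 284 CPM in Mmp3-negative libraries. The groups did not overlap, and the gap between them was wider than the spread within either. The means were 366 ± 25.0 CPM in Mmp3-positive and 278 ± 8.08 CPM in Mmp3-negative libraries (SD, n = 2 each). The log2 fold change was 0.40 with a standard error of 0.16 (edgeR unadjusted p = 0.0485, adjusted p = 0.553). DESeq2 gave 0.35 with an adjusted p of 0.0443. With an offset for transcript length the log2 fold change of Prelp was 0.22.

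Lum encodes lumican, a keratan sulfate proteoglycan needed for the clarity of the cornea and also made by skin and other connective tissues. It (ENSMUSG00000036446) lies at chr10:97565128-97572703 on the plus strand. Lum had 281 and 112 counts in Mmp3-positive libraries, against 64 and 92 counts in Mmp3-negative libraries, or 14.8 and 5.70 CPM against 3.45 and 5.30 CPM. Mmp3-positive replicate 1 stood apart, and the other 3 libraries were close together. The log2 fold change of Lum was 1.23 with a standard error of 1.39 (edgeR adjusted p = 0.995), and it was 0.38 without that library. Omd, which encodes osteomodulin, a keratan sulfate proteoglycan of mineralised tissue, lies at chr13:49582462-49592822 (ENSMUSG00000048368, plus strand). It had 0 and 15 counts in Mmp3-positive libraries, against 0 and 1 counts in Mmp3-negative libraries, so its counts came almost wholly from Mmp3-positive replicate 2.

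Ogn, the class III member, encodes osteoglycin, also called mimecan, and lies at chr13:49608046-49624501 (ENSMUSG00000021390, plus strand). It had 1 and 106 counts in Mmp3-positive libraries, against 0 and 78 counts in Mmp3-negative libraries. The replicate 2 library of each group held nearly all of them, and the groups overlapped. The log2 fold change of Ogn was 0.28 with a standard error of 3.07 (edgeR adjusted p = 0.999), and it ran from -5.25 to 8.70 when a library was left out. Podn, the class V member, encodes podocan, which binds type I collagen and is known from smooth muscle and kidney. It (ENSMUSG00000028600) lies at chr4:108014791-108096445 on the minus strand, and its span overlaps that of Scp2 on the same strand. Podn stood at 106 and 78.5 CPM in Mmp3-positive libraries, against 83.1 and 80.8 CPM in Mmp3-negative libraries. The Mmp3-negative values lay between the Mmp3-positive ones. For Podn the log2 fold change was 0.17 with a standard error of 0.26 (edgeR adjusted p = 0.999), and it was -0.062 without Mmp3-positive replicate 1.

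**Figure D2:**
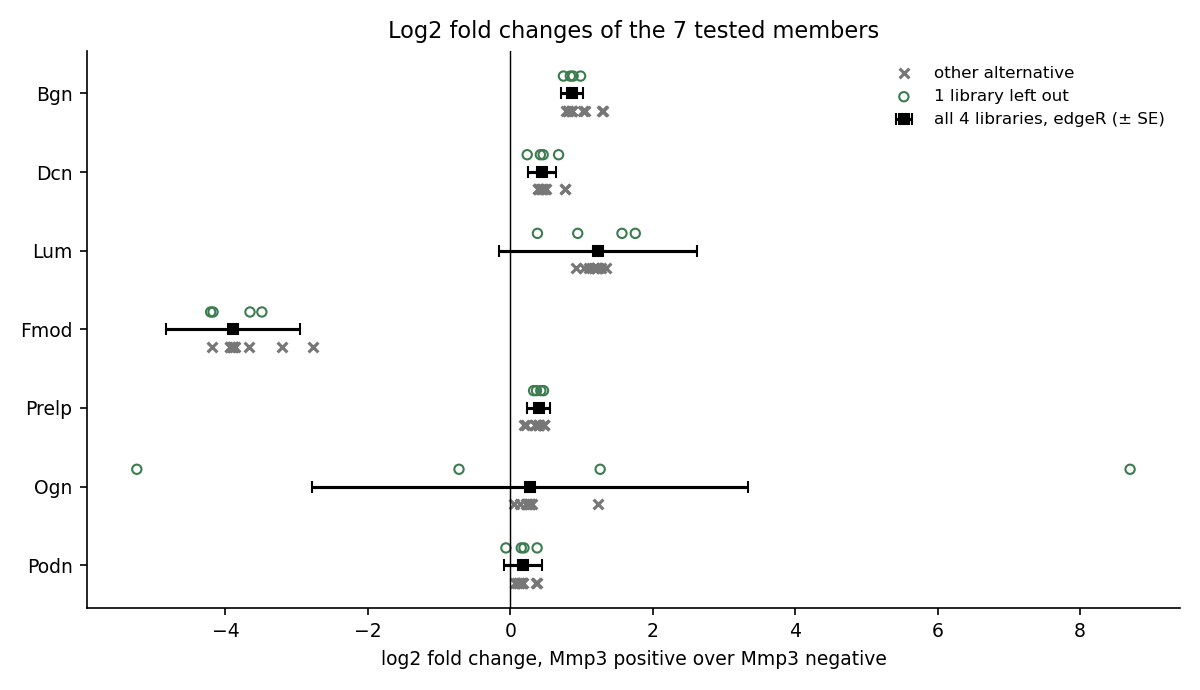
Log2 fold change, Mmp3-positive over Mmp3-negative, of the 7 tested members. Black squares with bars are the edgeR value ± standard error from all 4 libraries, green circles leave out 1 library each and grey crosses are the other settings. Bgn, Dcn, Lum and Prelp stay above 0 and Fmod below 0 in every setting drawn, while Ogn and Podn cross it.

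Levels can be compared between genes only per length, for which TPM, a length-corrected share of the library summed over the transcripts of a gene, were used. Over all transcripts Bgn was the most abundant member in every library, at 802 and 796 TPM in Mmp3-positive libraries against 232 and 457 TPM in Mmp3-negative libraries. Among protein-coding genes it ranked 103 and 84 in Mmp3-positive libraries and 215 and 201 in Mmp3-negative libraries, rank 1 being the highest. Dcn followed at 380 and 322 TPM against 181 and 233 TPM. With protein-coding transcripts alone, Dcn (181 TPM) was slightly above Bgn (175 TPM) in Mmp3-negative replicate 1. Prelp came next at 177 and 215 TPM against 88.7 and 222 TPM, so Dcn and Prelp were nearly level in Mmp3-negative replicate 2. Podn stood at 49.1 and 31.5 TPM against 23.0 and 40.1 TPM. Fmod stood at 0.669 and 0.855 TPM in Mmp3-positive libraries against 5.33 and 21.9 TPM in Mmp3-negative libraries. Lum stood at 8.39 and 2.88 TPM against 1.14 and 3.07 TPM, and on this scale its groups overlapped. In TPM the order of Lum and Fmod was therefore Lum above Fmod in both Mmp3-positive libraries and Fmod above Lum in both Mmp3-negative libraries. TPM is a share of each library, and protein-coding genes together held 783181 and 714744 TPM in Mmp3-positive libraries against 454910 and 835855 TPM in Mmp3-negative libraries. All members of Mmp3-negative replicate 1 are lower in TPM by that share, which shares within the family do not carry.

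Taking the summed TPM of the 9 members as the whole, Bgn made up 56.6% and 58.1% in Mmp3-positive libraries, against 43.7% and 46.6% in Mmp3-negative libraries. The Bgn share was higher in both Mmp3-positive libraries. Dcn made up 26.8% and 23.5% against 34.1% and 23.8%. Prelp made up 12.5% and 15.7% against 16.7% and 22.7%, lower in both Mmp3-positive libraries although its CPM was higher. Podn held 3.47% and 2.29% in Mmp3-positive libraries against 4.33% and 4.09% in Mmp3-negative libraries. Fmod held 0.0472% and 0.0624% in Mmp3-positive libraries against 1.005% and 2.23% in Mmp3-negative libraries. With protein-coding transcripts alone the Bgn share was 53.5% and 51.1% against 40.0% and 46.6%, while the Prelp share was 10.3% and 11.3% against 12.0% and 11.5%. The shares are given as values with no test. An exact permutation test of 2 libraries against 2 cannot give a two-sided p below 0.333.

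**Figure D3:**
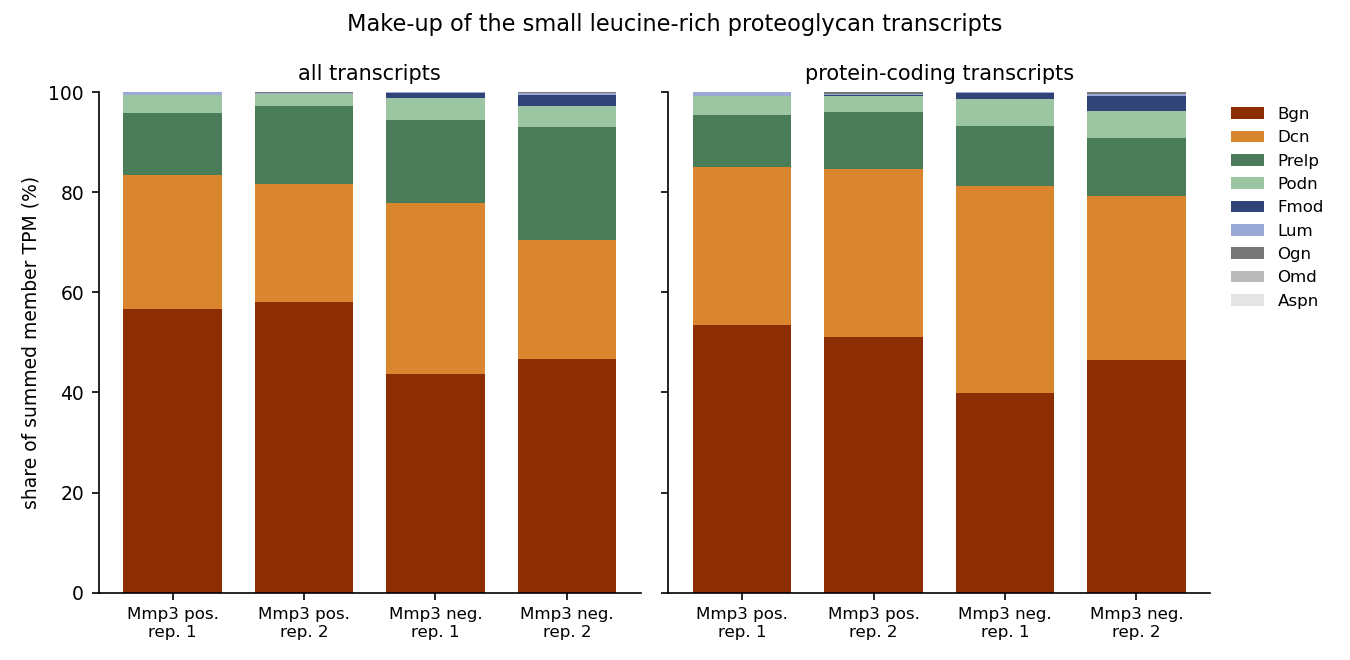
Share of the summed TPM of the family held by each member, as stacked percentages for each library over all transcripts (left panel) and protein-coding transcripts alone (right panel), with Mmp3-positive libraries left of Mmp3-negative ones. Over all transcripts Bgn takes 56.6% and 58.1% against 43.7% and 46.6%, and Dcn and Prelp take most of the rest.

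Count ratios between members do not depend on library size. The counts of Bgn were 2.34 and 2.34 times those of Dcn in Mmp3-positive libraries, against 1.39 and 2.23 times in Mmp3-negative libraries. Bgn over Prelp was 3.06 and 2.70 in Mmp3-positive libraries against 1.95 and 2.21 in Mmp3-negative libraries. Both ratios were higher in each Mmp3-positive library, although Bgn over Dcn in Mmp3-negative replicate 2 was near the Mmp3-positive values. Pdgfra, the receptor for platelet-derived growth factor that marks stromal fibroblasts, gives a stromal reference. Bgn over Pdgfra was 0.644 and 0.616 in Mmp3-positive libraries against 0.572 and 0.590 in Mmp3-negative libraries. Prelp over Pdgfra was 0.210 and 0.228 against 0.293 and 0.267, and Podn over Pdgfra was 0.0641 and 0.0465 against 0.0895 and 0.0760. Relative to Pdgfra, Prelp and Podn were thus lower in both Mmp3-positive libraries and Bgn was slightly higher. Dcn over Pdgfra was 0.275 and 0.263 in Mmp3-positive libraries against 0.411 and 0.264 in Mmp3-negative libraries. Pdgfra itself stood at 1657 and 1687 CPM in Mmp3-positive libraries against 929 and 1063 CPM in Mmp3-negative libraries (log2 fold change 0.75, edgeR adjusted p = 0.480).

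The estimated counts of several members were divided among alternative transcripts. Bgn-201 held 69.0% and 61.2% of the Bgn counts in Mmp3-positive libraries, against 69.6% and 86.8% in Mmp3-negative libraries. Bgn-207 held 20.3% and 19.3% against 18.0% and 2.32%, so Mmp3-negative replicate 2 stood apart from the other 3 libraries. Dcn-202 held 74.7% and 72.8% in Mmp3-positive libraries against 73.8% and 68.8% in Mmp3-negative libraries, a like division in all 4. Prelp-202 is a short processed transcript with no annotated protein. It held 8.35% and 15.7% of the Prelp counts in Mmp3-positive libraries against 11.5% and 24.4% in Mmp3-negative libraries. Because it is short it held far more of the Prelp TPM, 32.2% and 49.5% against 40.7% and 63.0%. With protein-coding transcripts alone Prelp stood at 120 and 108 TPM in Mmp3-positive libraries against 52.5 and 82.2 TPM in Mmp3-negative libraries, and the groups no longer overlapped. Fmod-202 held 33.7% of the Fmod TPM but 5.86% of its counts in Mmp3-negative replicate 2. Podn-201 held 61.7% and 7.39% of the Podn counts in Mmp3-positive libraries against 100% and 73.2% in Mmp3-negative libraries. Such divisions are estimates of the read assignment, and no test was made on them.

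**Figure D4:**
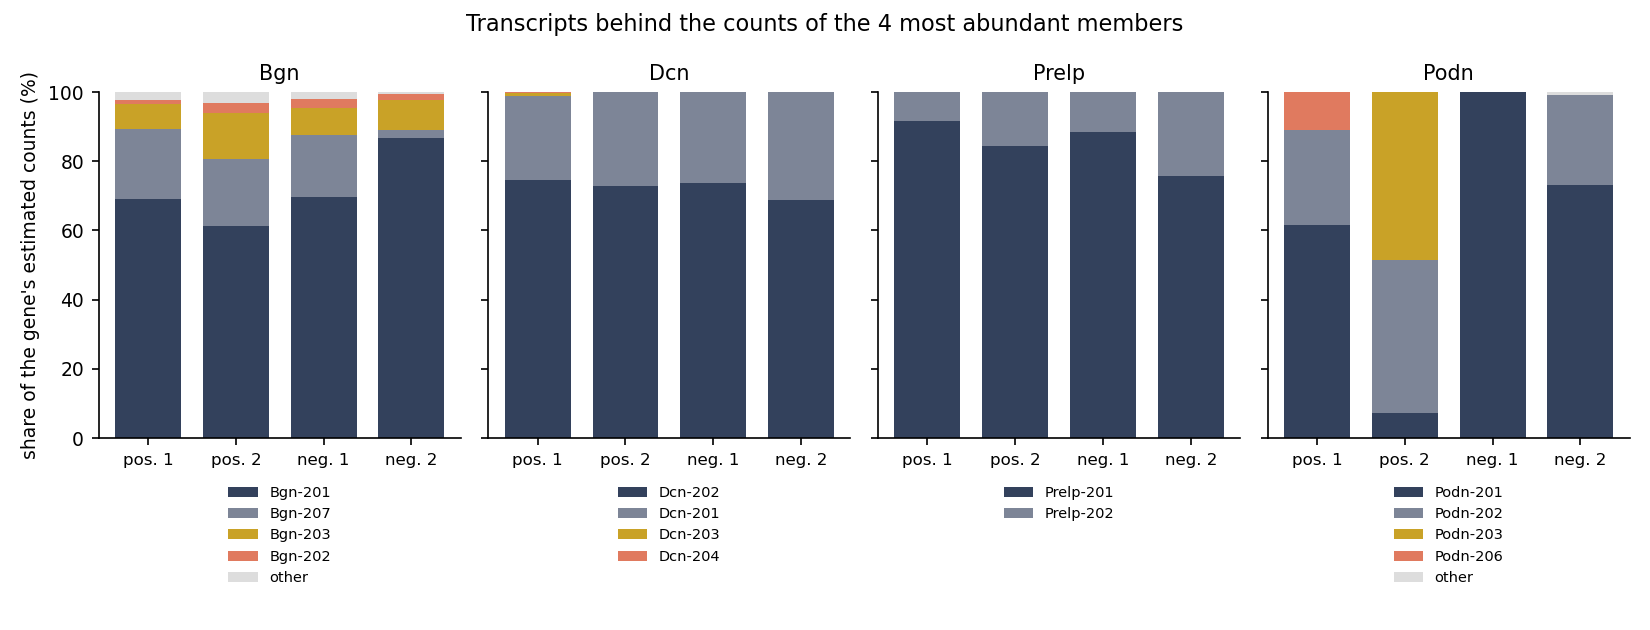
Share of the estimated counts of Bgn, Dcn, Prelp and Podn assigned to each of the 4 leading transcripts, with the rest as other, as stacked percentages for each library, with Mmp3-positive libraries left of Mmp3-negative ones. Bgn-201 and Dcn-202 hold the largest shares of their genes, and the division of Podn differs most between libraries.

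Several members lie side by side in the mouse genome. Prelp and Fmod, on chromosome 1, are 115.839 kb apart, and their log2 fold changes were 0.40 and -3.89. Optc, which encodes opticin, a class III relative known from the eye, lies 2.304 kb from Prelp on the other side. Optc had 1 and 0 counts in Mmp3-positive libraries against 117 and 146 counts in Mmp3-negative libraries (edgeR adjusted p = 0.480). All of these counts were assigned to transcripts with no annotated protein, and the protein-coding transcripts of Optc were listed at 0 TPM in all 4 libraries. Prelp, which lies between Optc and Fmod, had higher CPM in both Mmp3-positive libraries. Dcn and Lum, on chromosome 10, are 46.984 kb apart, with Kera (keratocan) and Epyc (epiphycan) beyond Lum, both listed at 0 in all 4 libraries. On chromosome 13, Aspn lies 14.896 kb from Omd, which lies 15.223 kb from Ogn, and Ecm2, a matrix protein gene with related repeats, lies 11.653 kb from Aspn. Ecm2 had 78 and 51 counts in Mmp3-positive libraries against 62 and 375 counts in Mmp3-negative libraries. The spans of all 3 members of the chromosome 13 cluster overlap that of Cenpp, a gene on the opposite strand. Cenpp had 20 and 0 counts in Mmp3-positive libraries against 0 and 36 in Mmp3-negative libraries. Overlap was taken from gene spans and not from exons, and the sources used here do not give the strand setting of the quantification. Whether any reads could fall to both Cenpp and Ogn or Omd was therefore not examined.

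The enzymes that build the chains carried by these core proteins were compared as a group. Of 28 genes for chondroitin and dermatan sulfate synthesis 27 were tested, 0 were called by edgeR, 3 were higher and 0 lower at an unadjusted p under 0.05, and the same numbers were called by DESeq2. The median log2 fold change was 0.20, or 0.073 without Mmp3-negative replicate 2 and 0.46 with either the replicate block or the length offset. It was 0.72 on log2(TPM + 1) and 0.83 on log2(TPM + 0.1), where the median of all tested genes was 0.29 and 0.37. The most abundant were Ugdh (0.44), which makes the sugar donor UDP-glucuronic acid, and the chain polymerising genes Chpf2 (0.11) and Chpf (0.04), all as log2 fold changes. The 3 with an unadjusted p under 0.05, named after their values were seen, were Csgalnact1 (1.10), which starts chondroitin chains, Pxylp1 (1.26), a phosphatase of the linker region, and Chst11 (0.98), a chondroitin 4-O-sulfotransferase. Csgalnact1 stood at 87.6 and 94.5 CPM in Mmp3-positive libraries against 55.4 and 29.8 CPM in Mmp3-negative libraries. Of 8 genes for keratan sulfate synthesis 5 were tested, none was called by either tool, and 0 had an unadjusted p under 0.05 in edgeR. Their median log2 fold change was 1.40, or 0.79 without Mmp3-positive replicate 2 and 0.76 without the count filter, with B4galt1 at 0.12, B4galt4 at 2.05 and B3gnt2 at -2.66.

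The binding partners of the family were measured as well. Fibril and fibril-associated collagens, the main ligands among them, were all tested (11 of 11) and had a median of 0.10 on the log2 scale, with 0 called by edgeR or DESeq2 and 1 higher at an unadjusted p under 0.05. This median was -0.19 and 0.29 without Mmp3-negative replicates 1 and 2, and 0.30 and -0.055 without Mmp3-positive replicates 1 and 2, so its sign depended on single libraries. Col3a1, Col1a1 and Col1a2, chains of collagens III and I, had log2 fold changes of 0.10, 0.10 and 0.23. The counts of Bgn were 0.165 and 0.106 times those of Col1a1 in Mmp3-positive libraries, against 0.0917 and 0.0673 times in Mmp3-negative libraries. Of 12 receptors and growth factors that decorin or biglycan bind, all were tested, edgeR called 0, and 0 were higher and 2 lower at an unadjusted p under 0.05, while DESeq2 called 1 higher and 2 lower. The median was -1.11, or -0.44 without Mmp3-negative replicate 1, -0.73 without its replicate 2 and -0.63 without Mmp3-positive replicate 1. It was -0.34 on log2(TPM + 1) and -0.31 on log2(TPM + 0.1). Lrp1, an endocytic receptor for decorin, stood at 0.26, Egfr, the epidermal growth factor receptor, at 0.37, and P2rx7, an ATP-gated channel, at -1.62.

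Mmp3 encodes stromelysin-1, a protease able to cleave several members of the family. Of 10 proteases listed as cleaving these proteoglycans 8 were tested. Besides Mmp3, which defined the groups, edgeR called none. Mmp14 and Mmp2, a membrane-bound and a secreted metalloproteinase, had log2 fold changes of 0.20 and 0.32. Adamts4, an aggrecanase named after its value was seen, stood at 29.3 and 8.25 CPM in Mmp3-positive libraries against 121 and 134 CPM in Mmp3-negative libraries (log2 fold change -2.77, edgeR adjusted p = 0.480). At an unadjusted p under 0.05, 2 of the 8 proteases were higher, Mmp3 included, and 1 was lower, and DESeq2 called the same numbers. The median was 0.24 with Mmp3, which defined the groups, included.

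Other matrix genes with leucine-rich repeats and other proteoglycans had values on both sides of 0. Of 9 other leucine-rich repeat genes 7 were tested and edgeR called 0. At an unadjusted p under 0.05, 1 was higher and 1 lower, as in DESeq2. Their median was -0.70, and it was 0.38 without Mmp3-negative replicate 2, -0.21 without Mmp3-positive replicate 1, 0.18 without its replicate 2 and 0.44 with protein-coding transcripts alone. Tsku, encoding the secreted protein tsukushi, had a log2 fold change of 0.58, Chadl, a chondroadherin relative, -0.70, and Ecm2 -1.90. Chad, the chondroadherin gene, had CPM values of 1.84 and 4.07 in Mmp3-positive libraries and was listed at 0 in both Mmp3-negative libraries. Of 24 other proteoglycan core proteins 19 were tested and edgeR called 0. At an unadjusted p under 0.05, 5 were higher and 1 lower, and DESeq2 called 4 and 1. Their median was -0.17, and it lay between 0.027 and 0.28 when any 1 of the 4 libraries was left out. Tgfbr3, the betaglycan coreceptor of transforming growth factor beta, stood at 0.37, Hspg2, the basement membrane proteoglycan perlecan, at 0.30, and Sdc4, the cell surface proteoglycan syndecan-4, at 0.26. Over all transcripts Tgfbr3 stood at 509 and 441 TPM in Mmp3-positive libraries against 271 and 398 TPM in Mmp3-negative libraries. With protein-coding transcripts alone it stood at 13.5 and 13.6 TPM against 24.8 and 60.0 TPM. The direction of Tgfbr3 was thus the reverse on its protein-coding transcripts, which held a small part of its TPM.

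**Figure D5:**
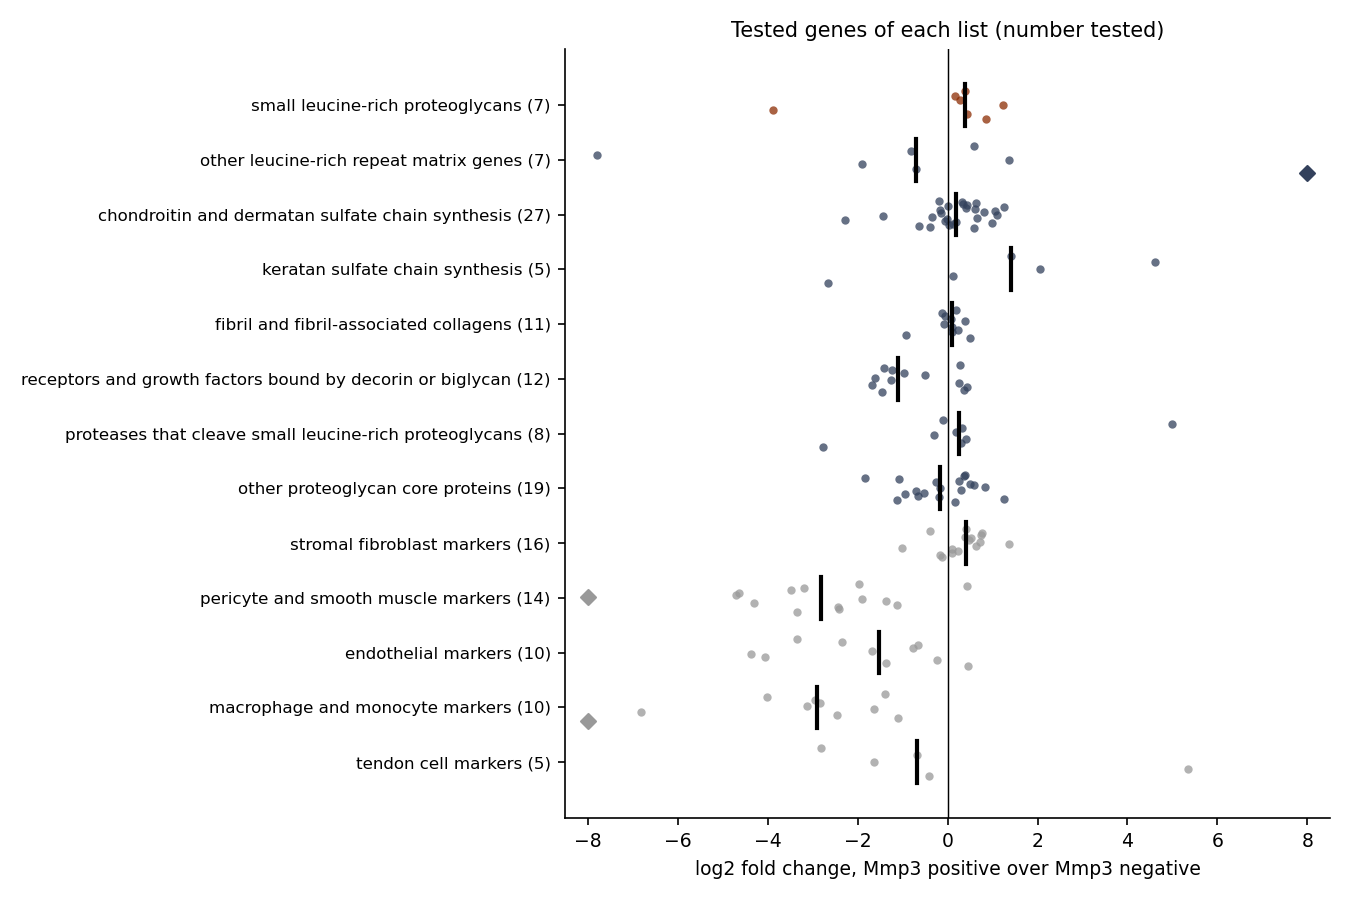
Log2 fold change, Mmp3-positive over Mmp3-negative, of every tested gene of the family (orange, top), of the related gene lists (dark blue) and of cell type marker lists (grey), with the number tested in brackets. Bars are list medians and diamonds are genes beyond 8, drawn at the edge. The family's median is 0.40, with Fmod at -3.89, and the pericyte and smooth muscle markers have a median of -2.82.

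Summed markers of other cell types differed between the groups beside the members, and their part in the member results was not tested. Stromal fibroblast markers summed to 30401 and 38404 CPM in Mmp3-positive libraries against 22163 and 31467 CPM in Mmp3-negative libraries, so their sums overlapped. Their median log2 fold change was 0.40 with 16 of 16 genes tested, with 0 called by edgeR, 4 higher and 0 lower at an unadjusted p under 0.05, and the same numbers in DESeq2. Gsn, an actin-severing protein, stood at 0.71 and Col3a1 at 0.10. The median of these markers was thus as large as the family's own.

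Pericyte and smooth muscle markers summed to 112 and 112 CPM in Mmp3-positive libraries against 872 and 829 CPM in Mmp3-negative libraries. All 14 were tested, with a median of -2.82, 0 called by edgeR, 0 higher and 7 lower at an unadjusted p under 0.05, and 0 higher and 8 lower in DESeq2. Tagln and Acta2, both contractile genes, stood at -1.97 and -2.41. Endothelial markers summed to 231 and 223 CPM against 461 and 315 CPM, with a median of -1.52 (-1.003 without Mmp3-negative replicate 1) over 10 of 12 genes and 3 lower at an unadjusted p under 0.05. Eng and Pecam1 stood at -0.24 and -0.76. Macrophage and monocyte markers summed to 39.5 and 36.1 CPM against 343 and 142 CPM. Their median was -2.90 (-1.94 without Mmp3-negative replicate 1) over 10 of 12 genes, with 3 lower at an unadjusted p under 0.05. Cd68 and C1qb stood at -1.63 and -2.47. Dendritic cell markers summed to 18.4 and 19.9 CPM against 185 and 77.5 CPM, with a median of -3.34 (-9.98 without Mmp3-positive replicate 1) over 6 of 7 genes and 2 lower at an unadjusted p under 0.05. H2-Eb1, a class II antigen presentation gene, was listed at 0 in both Mmp3-positive libraries. None of the genes in these 3 lists was called by edgeR, and DESeq2 called 3, 4 and 2 of them lower and 0 higher.

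Tendon cells are known to express Fmod strongly, so their markers were summed as well. They summed to 40.8 and 47.5 CPM in Mmp3-positive libraries against 112 and 252 CPM in Mmp3-negative libraries. Most of the Mmp3-negative sums came from Thbs4, a thrombospondin of tendon matrix. It stood at 19.8 and 23.3 CPM in Mmp3-positive libraries against 76.0 and 226.7 CPM in Mmp3-negative libraries. Like Fmod, Thbs4 was highest in Mmp3-negative replicate 2, so the summed tendon markers largely follow a single gene. Scx, the tendon transcription factor, stood at 10.2 and 12.0 CPM against 16.7 and 18.6 CPM, and Tnmd, tenomodulin, was listed at 0 in all 4 libraries. Of 6 tendon markers 5 were tested, and by log2 fold change 1 was higher in Mmp3-positive libraries and 4 were lower. Their median was -0.67, and it was 0.20 both without Mmp3-negative replicate 1 and with protein-coding transcripts alone. Of these markers edgeR called 0, 1 was lower at an unadjusted p under 0.05, and DESeq2 called 1 lower. Schwann cell markers summed to 47.3 and 42.3 CPM against 88.5 and 102 CPM (median -0.74, or -1.21 without Mmp3-positive replicate 1, 6 of 8 tested), and adipocyte markers to 47.9 and 39.1 CPM against 92.5 and 96.8 CPM (median -0.72, 3 of 8 tested, or -1.20 without Mmp3-negative replicate 1 and -0.0015 without its replicate 2). Lymphocyte markers had 2 of 9 genes tested (median -1.23), bone and cartilage markers 3 of 9 (median -2.08) and skeletal muscle markers 4 of 8 (median -1.76). The bone and cartilage median was 4.41 without Mmp3-negative replicate 1, 7.63 without its replicate 2, -9.67 without Mmp3-positive replicate 1 and -1.09 without its replicate 2, so no direction is read from it. The skeletal muscle median was 2.01 without Mmp3-negative replicate 1, -2.75 without its replicate 2, -4.69 without Mmp3-positive replicate 1 and -5.61 without its replicate 2, and none is read there either. Mesothelial markers had 4 of 7 tested, and their median was -5.07, or -2.80 with the genes listed at 0 in a group held at their bound of 3 counts per library, which left the other list medians as given. edgeR called none of the genes in these 6 lists. At an unadjusted p under 0.05, 1 adipocyte, 1 skeletal muscle and 2 mesothelial markers were lower and 1 mesothelial marker was higher, and DESeq2 called the same numbers. The parts that these cells may have in the levels of Fmod, Optc and the other members were not tested.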

How the data were processed

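Libraries of Mmp3-positive and Mmp3-negative stromal vascular cells, 2 each, were grouped by their labels. The submitters' processing notes name kallisto 0.45.0 and the build GRCm38. Per the labels' protocols, RNA was taken up with a kit for fixed, embedded material, ribosomal RNA was depleted and strand was kept. The sources used here name no transcript set, strand setting or trimming step. Per the file headers, the authors deposited for each transcript its effective length, its estimated count and its TPM. kallisto divides reads among similar transcripts, so values of overlapping or near-identical genes are uncertain.

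Of 115270 transcripts, 113580 were matched by identifier to 35580 GENCODE M21 genes. The rest, with 0.809% and 0.995% of counts in Mmp3-positive and 2.08% and 0.729% in Mmp3-negative libraries, were left out. Sums of estimated counts over each gene's transcripts were rounded to whole numbers. Genes passing filterByExpr (minimum count 10) entered, after TMM scaling, the test of edgeR 4.0.16 (R 4.3.3, two-sided quasi-likelihood, 2 residual degrees of freedom, Benjamini-Hochberg over all genes tested). CPM are TMM-normalised. Standard errors were obtained by dividing each log2 fold change by the root of its F statistic. Groups were called not overlapping where every CPM of one group exceeded every CPM of the other. After the main fit, the edgeR test was also run on counts simulated from its fitted spread and mean levels, with the outcome not given here. The alternatives were DESeq2 1.42.0, DESeq2 size factors, no filter, a replicate block, leaving out each library, a transcript length offset, protein-coding genes only, limma 3.58.1 on log2(TPM + 1) and log2(TPM + 0.1), and the added alternatives of protein-coding transcripts alone and of TPM rescaled over protein-coding genes.

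The members, the 7 pathway and 12 marker lists and the tests were chosen with earlier results of these data known. Named were all members, Mmp3, the 3 genes of highest mean TPM per pathway list and the 2 per marker list, not all of which are printed. Pdgfra, Csgalnact1, Pxylp1, Chst11, Adamts4, Optc, Chad, Kera, Epyc, H2-Eb1, Tnmd, Hprt, Pgk1, Cenpp and Scp2 were named after their values were seen or for their position.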

Additional observations from a re-analysis of the deposited data

How the results depend on the processing

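With all 4 libraries, edgeR called 1 gene higher and 2 lower in Mmp3-positive cells. The numbers were 4 and 23 without the count filter, 775 and 593 with DESeq2, and 0 and 0 with limma on log2(TPM + 1), log2(TPM + 0.1) and, chosen after seeing the data, TPM rescaled over protein-coding genes. The calls lower were 0 with the length offset and 0 with protein-coding transcripts alone, also chosen after seeing the data. When a library was left out, with the lone library assumed to vary like the other group, calls ran from 0 to 13 on either side: 13 higher and 13 lower without Mmp3-negative replicate 1, 7 higher without its replicate 2, 0 and 0 without Mmp3-positive replicate 1, and 0 lower without its replicate 2. The cause was not tested. The calls at 0 had 1064, 1163 and 1300 genes at an unadjusted p under 0.05 in the limma settings.

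Bgn, Dcn, Lum and Prelp stayed higher and Fmod lower in all 14 alternatives. DESeq2 alone took members past the threshold, Bgn at 0.82, Prelp at 0.35 and Fmod at -3.94. Ogn ran from -5.25 to 8.70 and Podn from -0.062 to 0.38 with a library left out, changing sign. Lum was 0.38 without Mmp3-positive replicate 1, and Prelp was lowest, at 0.19, with rescaled TPM. Between same-numbered libraries, the correlation of deviations from the group means, taken over the tested genes, was 0.0261. With 2 libraries a group, this value cannot show whether libraries of the same set number were paired. The main fit did not pair them. With the number as a replicate block, 4 genes were called lower, and members stood at 0.87 for Bgn, 0.46 for Dcn, 0.40 for Prelp, -3.87 for Fmod, 1.10 for Lum, 1.23 for Ogn and 0.16 for Podn. The median of all genes was 0.29 in limma on log2(TPM + 1) and 0.37 with the smaller pseudocount, against 0.02 in edgeR, and TPM values shift with it. With 2 libraries a group no value could be tested as an outlier, and the counts of Omd, Ogn and Lum limit what can be seen.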
